A study of Homo sapiens with 4 samples.

Results

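MIR3142HG is the long noncoding RNA from which miR-146a is cut, and with 7 other transcripts that carry microRNAs (MIR22HG, MIR17HG, MIR31HG, MIR210HG, MIR155HG, MIR100HG and MIR4435-2HG) it was read in T24 cells with and without raised miR-146a-5p. The 8 were taken by name from a table of 60623 genes, and each name matched 1 row. T24 is an established cell line from a human bladder cancer. There were 4 libraries, 2 of scramble control cells and 2 of cells labelled as overexpressing miR-146a-5p, which the series' description words as a mimic. All 4 libraries come from the same line, and no other genotype, dose or time is named. Nothing in the labels says that the libraries of a group were separate cultures, so a p-value measures the spread between libraries, which may be technical.

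A microRNA host transcript is a longer RNA, usually made by RNA polymerase II, in which the hairpin of a microRNA lies. The nuclear enzyme DROSHA cuts the hairpin out and DICER1 trims it to the mature strand. Several hosts are known for their regulators: MIR3142HG and MIR155HG are textbook responders to the inflammatory factor NF-kB, MIR210HG to low oxygen through HIF, MIR17HG to MYC and E2F factors, and MIR22HG to cell stress. A host's level need not follow that of its mature microRNA, which these libraries do not measure.

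The mature sequences below show part of what the hosts carry, with the seed (bases 2 to 8, which lead the pairing with a target) in capitals. All 16 precursors listed for the 8 hosts had an entry in RefSeq (GRCh38.p14), with 29 mature strands and 26 different seeds among them. The 15 shown are a selection, which leaves out miR-18a-5p and miR-92a-3p of MIR17HG, among others. Of those shown, miR-17-5p and miR-20a-5p share 1 seed and miR-19a-3p and miR-19b-3p another.
hsa-miR-146a-5p: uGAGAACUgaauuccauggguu
hsa-miR-146a-3p: cCUCUGAAauucaguucuucag
hsa-miR-3142: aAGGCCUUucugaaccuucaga
hsa-miR-22-3p: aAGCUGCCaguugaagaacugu
hsa-miR-17-5p: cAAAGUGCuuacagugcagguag
hsa-miR-20a-5p: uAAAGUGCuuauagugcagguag
hsa-miR-19a-3p: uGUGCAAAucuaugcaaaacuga
hsa-miR-19b-3p: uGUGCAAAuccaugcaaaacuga
hsa-miR-31-5p: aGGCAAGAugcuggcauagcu
hsa-miR-210-3p: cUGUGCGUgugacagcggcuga
hsa-miR-155-5p: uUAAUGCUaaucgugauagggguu
hsa-miR-100-5p: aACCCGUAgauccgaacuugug
hsa-let-7a-5p: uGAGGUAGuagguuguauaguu
hsa-miR-125b-5p: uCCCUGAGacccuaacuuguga
hsa-miR-4435: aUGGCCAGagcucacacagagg

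The place of the hairpin differs between hosts, and it decides whether the hairpin is part of what the host's count measures. In GENCODE 29 (GRCh38) the MIR3142HG gene lies on chromosome 5 from 160438594 to 160487426 on the plus strand, with 2 transcripts of 2301 and 2204 bases. Both end in the same exon of 2128 bases, from 160485299 to 160487426. The miR-146a hairpin of 99 bases lies inside that exon, from 160485352 to 160485450, 53 bases after the exon's start, and makes up 4.65% of it. The hairpin of miR-3142, for which the gene is named, lies in the intron. The deposited table gives MIR3142HG a length of 2301 bases, the length of the longer transcript.

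The hairpin is printed here because MIR3142HG is the host of the very microRNA that was raised, with mature miR-146a-5p in capitals and the strand as transcribed (GRCh38.p14, chr5:160485352-160485450, plus strand).
miR-146a hairpin: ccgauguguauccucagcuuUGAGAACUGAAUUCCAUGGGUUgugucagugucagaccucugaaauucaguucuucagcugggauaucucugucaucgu

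**Figure D1:**
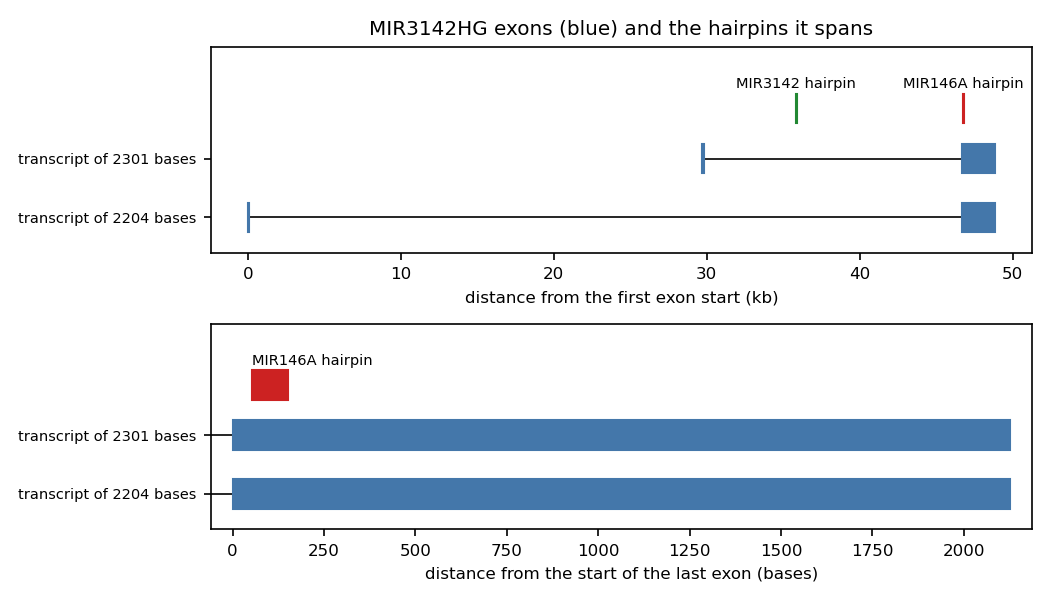
Exons of the 2 MIR3142HG transcripts (blue boxes, joined by lines for introns) with the hairpins of miR-146a (red) and miR-3142 (green) drawn to scale. The x axes are distance from the first exon start (top panel, kb) and from the start of the last exon (bottom panel, bases). The miR-146a hairpin sits inside the last exon of both transcripts, near its start, and the miR-3142 hairpin in the intron.

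The hairpins of MIR22HG and MIR155HG are exonic too, in 19 of 19 and 1 of 1 transcripts, and the 6 hairpins of the miR-17-92 cluster are exonic in 2 of the 3 MIR17HG transcripts. Those of miR-31, miR-210, miR-100, let-7a-2, miR-125b-1 and miR-4435-2 lie in introns of every annotated transcript that spans them. The precursor genes themselves, 65 to 110 bases long in the deposited table, were at 0 in all 4 libraries, all 16 of them, MIR146A included. In a library 3 counts are 0.132 to 0.148 CPM (counts scaled to a fixed library total). The 0s are not read as an upper limit of that size. MIR22 was at 0, though its hairpin is exonic in every MIR22HG transcript and MIR22HG had 687.57 to 861 counts. The table gives 1 value per gene, so MIR3142HG reads over the miR-146a hairpin cannot be told from reads over the rest of the transcript.

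MIR3142HG (ENSG00000253522) was far more abundant with miR-146a-5p, by the widest margin of the 7 tested hosts. Scramble replicates 1 and 2 held 24 and 9 estimated counts of it, against 179 and 194 in the miR-146a-5p libraries. Both miR-146a-5p libraries lay far above both scramble libraries, and every one of the 4 values was a whole number. Scaled by library total and TMM factors, its mean was 0.735 ± 0.480 CPM under scramble control and 8.94 ± 0.803 CPM with miR-146a-5p (SD, n = 2 libraries each). In TPM, which scales by transcript length as well, it was 0.45 ± 0.325 against 5.48 ± 0.587. The log2 fold change was 3.60 ± 0.54 (SE), a 12.1-fold difference. The labels speak of overexpression and the series' description of a mimic, and values per gene cannot tell reads of introduced miR-146a sequence, if any was used that overlaps the last exon, from reads of the cells' own MIR3142HG. In bulk RNA, more cells with the transcript and more of it per cell cannot be told apart.

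The 2 tools differed on the call. By edgeR's quasi-likelihood test MIR3142HG had an unadjusted p of 0.00211, rank 30 among 14810 tested genes, and an adjusted p of 0.959, so it did not pass. edgeR called 0% of tested genes at an adjusted p under 0.05 (3.71% had an unadjusted p under 0.05), and 0 of the 7 tested hosts. DESeq2 on the same rounded counts called it higher (log2 fold change 3.58 ± 0.64, adjusted p = 2.71e-05). It was 1 of 8 hosts so called, with 0.274% of the genes given an adjusted p called higher. The authors' deposited table lists it with a fold change of 11.96 and an adjusted p of 2.67e-05.

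Leaving out any 1 library kept MIR3142HG higher. Without scramble replicate 1 the log2 fold change was 4.48 and without scramble replicate 2 it was 3.06, and edgeR then called it (adjusted p = 5.26e-34 and 4.11e-23). In those fits edgeR called 54.9% and 21.7% of all genes, the spread of a lone library being taken from the other group. Leaving out miR-146a-5p replicate 1 or 2, edgeR called it as well (adjusted p = 0.00189 and 0.0111), when 12 and 8 genes in all were called, while DESeq2 no longer did (adjusted p = 1.00 in both). Each of the 4 libraries thus changes a call, by one tool or the other, and none changes the direction.

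**Figure D2:**
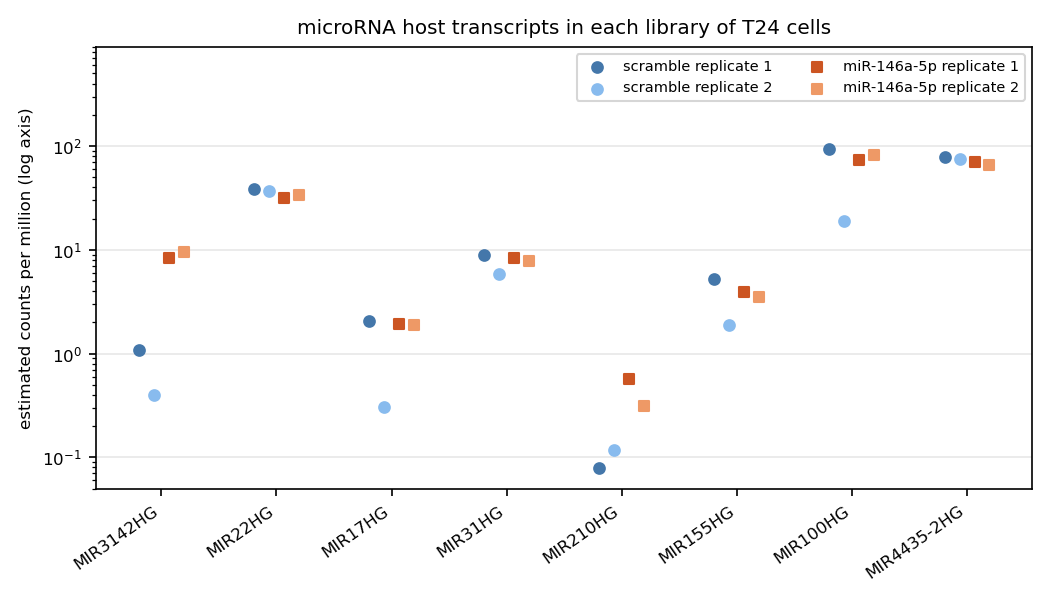
CPM of library total (log y axis) for each of the 8 host transcripts, with 1 point per library (circles, scramble; squares, miR-146a-5p). MIR3142HG is at 1.07 and 0.395 in scramble against 8.31 and 9.56, while MIR17HG, MIR31HG, MIR155HG and MIR100HG have their lowest point in scramble replicate 2.

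MIR155HG, the host of the other microRNA best known for NF-kB control, was not called by either tool. MIR155HG (ENSG00000234883; chromosome 21, 25561909 to 25575168, plus strand) had counts that were 116 and 43 in scramble and 85 and 71 in miR-146a-5p cells, so the miR-146a-5p libraries fell between the scramble libraries. Its log2 fold change was 0.074 ± 0.55 (edgeR adjusted p = 0.987). The sign differed with the scramble library used, 0.98 without scramble replicate 1 (edgeR adjusted p = 0.0101) and -0.46 without scramble replicate 2.

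The promoter windows of these 2 hosts, 250 bases before to 50 after the start in RefSeq (GRCh38.p14), are printed because they share a textbook regulator and differed in these libraries. Capitals mark matches on either strand to the kappa-B site (a 10-base consensus), to the AP-1 site TGANTCA, to the hypoxia response core ACGTG and to the E-box CACGTG, which contains that core. MIR3142HG is at chr5:160468001-160468300 on the plus strand and MIR155HG at chr21:25561895-25562194 on the plus strand.
MIR3142HG promoter: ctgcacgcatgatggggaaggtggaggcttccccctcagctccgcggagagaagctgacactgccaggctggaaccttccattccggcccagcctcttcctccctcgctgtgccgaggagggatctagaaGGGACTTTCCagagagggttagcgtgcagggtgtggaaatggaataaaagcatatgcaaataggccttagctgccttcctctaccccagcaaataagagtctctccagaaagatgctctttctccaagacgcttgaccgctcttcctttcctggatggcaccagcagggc
MIR155HG promoter: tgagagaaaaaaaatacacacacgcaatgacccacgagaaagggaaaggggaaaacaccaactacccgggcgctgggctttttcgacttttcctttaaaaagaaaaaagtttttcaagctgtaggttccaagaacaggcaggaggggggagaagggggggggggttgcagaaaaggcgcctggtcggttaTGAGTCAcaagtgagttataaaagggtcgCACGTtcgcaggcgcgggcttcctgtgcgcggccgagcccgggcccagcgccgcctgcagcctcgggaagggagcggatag

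The MIR3142HG window holds 1 kappa-B match, GGGACTTTCC, starting 120 bases before the start site, and no match to the other motifs. Across 35116 promoters of the same length, 5.91% hold a kappa-B match. The MIR155HG window holds an AP-1 match, TGAGTCA, 60 bases before the start (7.71% of promoters) and a hypoxia core 31 bases before it (21.4% of promoters). Among the other hosts, 1 of the 6 MIR100HG windows also holds a kappa-B match, the windows of MIR210HG and MIR22HG and 1 of MIR100HG hold a hypoxia core, and that of MIR4435-2HG holds an AP-1 match. No window of the 8 hosts matched the E-box, which 7.26% of promoters hold. The longer MIR3142HG transcript starts inside the printed window, while the shorter one, which starts at 160438594, has no window here. Distances are from the RefSeq start, which differs from the GENCODE start for MIR155HG. Its GENCODE start, 25561909, lies near the beginning of the window, which opens at 25561895. By GENCODE both MIR155HG matches therefore lie after the start, and sequence before that start was hardly searched. Sequence outside the windows was not searched, so a missing match says nothing of sites further away. These matches describe letters, and binding was not measured.

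MIR210HG (ENSG00000247095; chromosome 11, 565660 to 568457, minus strand), from which the hypoxia microRNA miR-210 comes, was the lowest of the 8. It had 1.78 and 2.69 estimated counts in scramble and 12.28 and 6.34 in miR-146a-5p cells, so it stayed at or under 3 counts in both scramble libraries and passed 10 in a single library. By a limit of 10 counts in every library no host of the 8 was near zero throughout, and MIR210HG came closest. It did not pass the filter on low counts. The ratio of its rounded counts per library total was 3.89, with an exact 95% interval of 1.39 to 13.4 that covers counting error only. DESeq2 gave a log2 fold change of 1.93 ± 1.35 and an adjusted p of 1.00. In TPM the ratio was 17.5, since 100 counts were worth 3.37 and 2.97 TPM in the scramble libraries and 13.3 and 12.9 TPM in the others. Fold changes of this transcript therefore differ between scales, and its counts were not whole numbers in any library.

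MIR100HG (ENSG00000255248; chromosome 11, 122028327 to 122556721, minus strand), the host of miR-100, let-7a-2 and miR-125b-1, showed how far the scramble libraries differ. Its counts were 2078 and 427.94 in scramble against 1584.7 and 1680 with miR-146a-5p, so scramble replicate 1 was the highest and scramble replicate 2 the lowest of the 4. Its log2 fold change was 0.48 ± 0.78 (edgeR adjusted p = 0.970). Without scramble replicate 1 edgeR called it higher (2.06, adjusted p = 4.70e-73), in a fit that called 54.9% of all genes. Without scramble replicate 2 edgeR called it lower (-0.24, adjusted p = 0.0359), in a fit that called 21.7%, while DESeq2 did not call it there.

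MIR17HG (ENSG00000215417; chromosome 13, 91347820 to 91354579, plus strand), which carries the growth-promoting miR-17-92 cluster, followed the same pattern at a lower level. Counts were 46 and 7 in scramble and 42 and 38 in miR-146a-5p cells, where a single library is apart from the other 3. Its log2 fold change of 0.69 ± 0.89 (edgeR adjusted p = 0.970) became 2.62 without scramble replicate 1 (adjusted p = 0.000146) and -0.092 without scramble replicate 2 (adjusted p = 0.915). MIR31HG (ENSG00000171889; chromosome 9, 21455642 to 21559669, minus strand), the host of miR-31, had 200.09 and 134.45 counts against 178.53 and 158.43. Its log2 fold change was 0.12 ± 0.30 (edgeR adjusted p = 0.972), with 0.45 without scramble replicate 1 and -0.14 without scramble replicate 2, neither of them called.

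**Figure D3:**
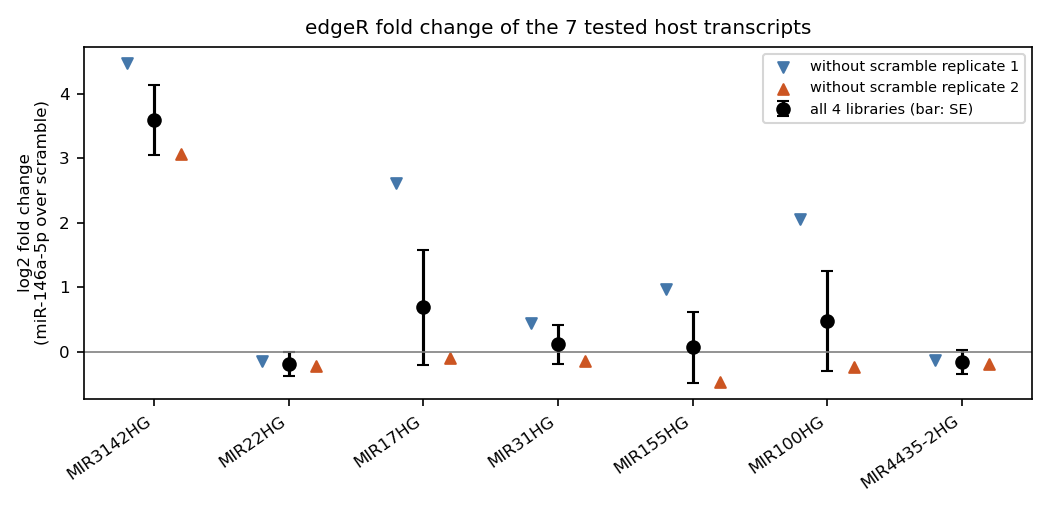
Log2 fold change (miR-146a-5p over scramble) of the 7 tested hosts by edgeR with all 4 libraries (black, bar is the SE) and with either scramble library left out (triangles). MIR3142HG stays between 3.06 and 4.48, while MIR17HG, MIR31HG, MIR155HG and MIR100HG lie above 0 without scramble replicate 1 and below 0 without scramble replicate 2.

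Scramble replicate 2 was below scramble replicate 1 in all 7 tested hosts. The same held for 14 of 16 other tested transcripts named as hosts and for 6610 of 14810 tested genes. The median log2 difference was -1.26 in the 7 hosts and 0.11 over all tested genes. GC content of the transcript moved with this gap. Tested genes were put into 5 groups of equal size by GC content. In the group of lowest GC content (27.8% to 40.8%) the median difference, scramble replicate 2 minus replicate 1, was -1.53, and in the group of highest GC content it was 0.51. MIR17HG, MIR155HG and MIR100HG, with 37.7%, 37.8% and 38.6% GC in their longest GENCODE transcript, are in the lowest group and had differences of -2.43, -1.41 and -2.30. MIR3142HG (42.9% GC) had -1.26, where the median of its GC group was -0.42. MIR22HG and MIR4435-2HG (49.5% and 48.4%) had -0.075 and -0.073, in a group with a median of 0.14. MIR31HG had -0.60 in a group with a median of 0.36. All tested hosts except MIR155HG were thus below the median of their GC group. The GENCODE transcript of MIR31HG has 745 bases against a deposited length of 6526, so its GC value is for another gene model. The GC values of MIR100HG (3370 bases against 4534) and MIR4435-2HG (3565 against 3647) carry the same doubt. With a GC trend removed from each library the log2 fold change of MIR3142HG was 3.46 (edgeR adjusted p = 0.193), that of MIR155HG was -0.34 and that of MIR17HG 0.45. The part of GC content in these differences was not tested.

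**Figure D4:**
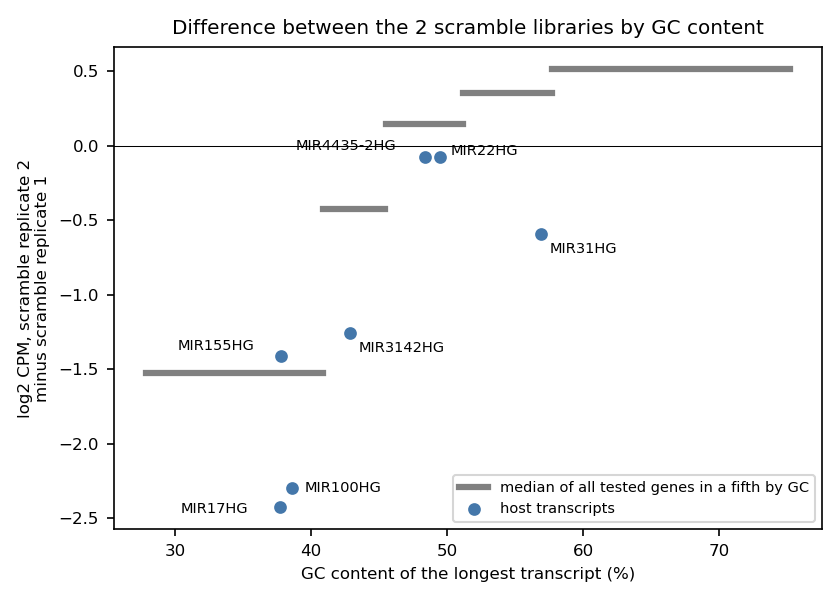
Difference in log2 CPM between the 2 scramble libraries (y axis, replicate 2 minus replicate 1) against GC content of the longest transcript (x axis, %), with blue points for the 7 tested hosts and grey bars for the median of all tested genes in each of the 5 groups by GC. The 3 hosts of lowest GC content have differences from -2.43 to -1.41, and the grey bars rise from -1.53 to 0.51.

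MIR22HG and MIR4435-2HG were abundant and differed little between libraries. MIR22HG (ENSG00000186594; chromosome 17, 1711493 to 1717174, minus strand), the host of miR-22, had 861 and 831.64 counts in scramble and 687.57 and 689.83 in miR-146a-5p cells. Both miR-146a-5p libraries were below both scramble libraries by a small margin, at 33.0 ± 1.16 against 37.5 ± 1.38 CPM (SD, n = 2). The log2 fold change was -0.19 ± 0.19 (edgeR adjusted p = 0.970), and it kept its sign without either scramble library (-0.15 and -0.21). MIR4435-2HG (ENSG00000172965; chromosome 2, 111036776 to 111523376, minus strand), a long noncoding RNA studied in several cancers, had 1750.4 and 1692.53 counts against 1524.48 and 1339.35, again below both scramble libraries, with a log2 fold change of -0.16 ± 0.19 (edgeR adjusted p = 0.970). Among the 7 tested hosts, the miR-146a-5p libraries were both higher than either scramble library for 1 and both lower for 2, where 18.0% of all tested genes lay above and 17.9% below, and the hosts' counts are near that background. The hosts' median log2 fold change was 0.12, against -0.0014 for all tested genes.

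MIR4435-2HG shares part of its sequence with a copy, CYTOR, and the values of both are uncertain for that reason. Of the 50-base stretches in the longest MIR4435-2HG transcript, 45.5% occur in a CYTOR transcript. Of those in the longest CYTOR transcript, 19.1% occur in a MIR4435-2HG transcript. CYTOR had 955.19 and 886.33 counts in scramble and 799.18 and 799.75 with miR-146a-5p. Summed, the pair had 121 and 113 CPM of library total in scramble against 108 and 105, so the sum was also below both scramble libraries. MIR4435-2HG took between 62.6% and 65.6% of the pair in the 4 libraries. MIR4435-2HG also shares exon bases with BCL2L11, MIR100HG with BLID and MIR31HG with the pseudogene IFNWP19. How strand was handled in counting is not stated in the sources at hand, so reads over those stretches cannot be assigned with certainty.

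By TPM, which allows levels of different transcripts to be compared, MIR4435-2HG was the most abundant host in both groups, at 121 ± 9.74 in scramble and 105 ± 9.33 in miR-146a-5p cells (SD, n = 2). In scramble cells MIR22HG (30.3 ± 2.43) and MIR100HG (29.7 ± 22.2) followed and did not differ beyond their spread, then MIR31HG (6.42 ± 3.07), MIR155HG (3.44 ± 2.52) and MIR17HG (1.62 ± 1.61), which also overlapped in their spread from one to the next. MIR3142HG (0.45 ± 0.325), which overlapped MIR17HG in spread, and MIR210HG (0.07 ± 0.0141) were last. In miR-146a-5p cells MIR3142HG, at 5.48 ± 0.587, stood 5th of the 8 by mean TPM and not 7th, between MIR31HG (7.72 ± 0.0919) and MIR155HG (3.61 ± 0.276). The other 7 kept their order save that MIR100HG (39.9 ± 2.51) was above MIR22HG (24.8 ± 0.714).

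The heptamer AGTTCTC, which pairs with the miR-146a-5p seed, was searched in the longest GENCODE transcript of each host, which was decided on with the values already known. It occurs once in MIR17HG and once in MIR100HG and in none of the other 6 longest transcripts, that of MIR3142HG included. Among long noncoding genes at least as long as the shortest of these transcripts (745 bases), 13.8% hold it, against 8.38% of all long noncoding genes. The 2 transcripts with a site are longer, at 2845 and 3370 bases. This background was not matched to the hosts in length, so it cannot say whether they hold more sites than others. The 2 sites, with the heptamer in capitals, are shown because they are the exact matches found. Other transcripts of the hosts and other kinds of site were not searched. The MIR100HG transcript searched has 3370 bases against a deposited length of 4534.
MIR17HG site: ccaaaattAGTTCTCatttattt
MIR100HG site: tctcacatAGTTCTCattgagtg
Neither of these 2 hosts passed with all 4 libraries, and both turned direction with the scramble library left out, as given above.

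Another 56 transcripts in the table are named as microRNA hosts. Of these, 25 were at 0 in every library, 12 more had at most 3 counts, 3 had at most 10 and 16 had more than 10 in some library. Those 16 were tested, and edgeR and DESeq2 each called 0 of them, with 0 at an unadjusted edgeR p under 0.05. For 3 of them both miR-146a-5p libraries were higher than either scramble library and for 4 lower, near the 18.0% and 17.9% of all tested genes, and their median log2 fold change was -0.086. MIR222HG, the host of miR-222 and miR-221, had 263 and 40 counts in scramble and 273 and 251 with miR-146a-5p, the same single low library as MIR17HG. MIR137HG had 687 and 240 counts against 431 and 387. MIRLET7BHG (532.53 and 524.01 against 386.64 and 441) and MIR503HG (81 and 80 against 92 and 93) varied less. The smallest p-values were those of MIR646HG (log2 fold change -0.54, edgeR adjusted p = 0.970) and MIR924HG (0.81, edgeR adjusted p = 0.970). Without scramble replicate 1 edgeR called 5 of the 16 and 4 of the 8 hosts above, and without scramble replicate 2 it called 2 of the 16 and 2 of the 8, beside the 54.9% and 21.7% of all genes.

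The genes next to MIR3142HG were not called. PTTG1, the securin that guards sister chromatid separation, had 2457 and 3270 counts in scramble and 3501 and 3145 in miR-146a-5p cells (log2 fold change 0.32 ± 0.21, edgeR adjusted p = 0.970), and ATP10B on the other side had at most 2 counts in a library. Of 16 neighbours of the 8 hosts in RefSeq order, 8 were tested and 0 called by either tool. PHRF1, beside MIR210HG, had 203.68 and 292.37 counts against 119.08 and 106.65 (log2 fold change -1.02 ± 0.28, edgeR adjusted p = 0.970), the 1 neighbour with an unadjusted p under 0.05.

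The factors known to act on these hosts showed no called change in their own RNA. All 14 listed factors, the smallest p-values being those of NFKB2, MYC and RELB, were tested, and edgeR and DESeq2 called 0 each. Their log2 fold changes ran from -0.38 to 0.39 with a median of 0.060. NFKB1, NFKB2 and RELB are in the next list too. In a list of 16 genes that NF-kB induces, 15 were tested, 11 lay above both scramble libraries, 0 below, and DESeq2 called 7 higher while edgeR called 0, with a median log2 fold change of 1.30. Over all tested genes 18.0% lay above and 17.9% below, and DESeq2 called 0.274% higher. CXCL1, a chemokine for neutrophils, was at 105 ± 28.4 and 750 ± 17.2 CPM in the 2 groups and has near-identical relatives, and CXCL8, another chemokine, was at 49.7 ± 12.7 and 350 ± 2.38 CPM (SD, n = 2). SOD2, a mitochondrial superoxide dismutase, had a log2 fold change of 1.76 ± 0.18. In a list of 13 hypoxia genes, the context of MIR210HG, 11 lay above both scramble libraries and 0 below, beside the same 18.0% and 17.9% of all tested genes, with a median of 0.58 and 0 calls by edgeR or DESeq2. Its smallest p-values were those of CA9, a carbonic anhydrase (2.22 ± 0.45), NDRG1, a stress-response gene (0.81 ± 0.21), and VEGFA, the vessel growth factor (0.77 ± 0.21), all log2 fold changes with SE and an edgeR adjusted p of 0.970. These lists were chosen with results of these libraries known and share their scramble libraries with the hosts, so they are given side by side only.

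The genes whose pattern was most like that of MIR3142HG, by Euclidean distance between centred log2 CPM over the 4 libraries, were LCN2 (distance 0.441), CD69 (0.474), CXCL8 (0.916), CCDC134 (1.01) and EHF (1.13). Of these CXCL8 and CD69 were called by DESeq2, and LCN2, CD69, CCDC134 and EHF had under 0.2 CPM in both scramble libraries. For MIR100HG the closest were CCAR1 (0.0298) and ZNF624 (0.0493), and for MIR17HG ETAA1 (0.0400) and FANCB (0.0629), all of them lowest in scramble replicate 2. For MIR155HG they were ZNF841 and XRCC2, for MIR31HG NANP and LINC01184, for MIR22HG ME1 and FBXO22, and for MIR4435-2HG RAB29 and MSL2. With 4 libraries many genes share any pattern, and a small distance is a description.

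The cells carried part of the bladder lining's markers. Of 15 urothelial markers 7 passed 10 counts in a library, with a summed level of 3354 to 4707 TPM in the 4 libraries, while KRT5, KRT20, TP63, CDH1 and the uroplakins UPK1A, UPK1B, UPK2 and UPK3A had at most 3 counts. Leukocyte markers, relevant to MIR155HG as a transcript of immune cells, summed to between 11.1 and 14.5 TPM, with CD3E and CD79A at or under 3 counts, and endothelial and fibroblast markers to at most 0.33 and 1.44 TPM. Total estimated counts were 20290055 to 22774090 per library.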

How the data were processed

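RNA from 2 scramble and 2 miR-146a-5p libraries of T24 cells was sequenced after Trizol extraction and TruSeq RNA library preparation, as the labels state. HISAT2 2.0.1, cutadapt 1.9.1, DESeq2, HTSeq 0.6.1 and the build hg19 appear in the submitters' processing notes, with no role for each. Which annotation release was used, and which tool gave fractional values, is not stated there. The authors deposited an estimated count per gene and library, of which 34.3% were not whole among genes above 0 in all libraries, and TPM per library. The authors' fold change, its log2 value and their p-values come from the same deposited table and were used only where named.

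Estimated counts were rounded to whole numbers. Groups were compared with the two-sided quasi-likelihood test of edgeR 4.0.16 in R 4.3.3, with group as its single term, TMM scaling, filterByExpr (minimum count 10, minimum total 15; 14810 genes) and Benjamini-Hochberg adjustment over all genes at a threshold of 0.05. SEs were derived from the F statistic, and log2 CPM used a prior count of 2. DESeq2 1.42.0 was run on all rows, with 16044 genes given an adjusted p and 52 called (44 higher, 8 lower), and limma 3.58.1 (voom) as a further alternative. Transcript structure, GC content and seed matches came from GENCODE 29 (GRCh38), and sequences from RefSeq tables (GRCh38.p14), which may differ from the authors' build.

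The hosts and gene lists were chosen with earlier results of these data known. Named are all 8 hosts, their precursors, their neighbours, the copy CYTOR, other transcripts named MIR...HG (the 4 highest in TPM and the 2 with the smallest p), at most 3 genes of each context list, and the genes nearest in pattern (5 for MIR3142HG, 2 for each other tested host).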

Additional observations from a re-analysis of the deposited data

How the results depend on the processing

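MIR3142HG was higher under every alternative run. Its log2 fold change was 3.58 by DESeq2, which called it (adjusted p = 2.71e-05), and ran from 3.06 to 4.48 with 1 library left out in turn, where edgeR called it each time. It was not called by limma-voom (adjusted p = 0.866), with DESeq2 size factors in edgeR (0.958), with no filter on low counts (0.832), with unrounded counts (0.955) or with a GC trend removed (0.193, chosen after the data were seen). Signs turned for 4 hosts that were not called with all libraries. With 1 library left out in turn the log2 fold changes ran from -0.092 to 2.62 (MIR17HG), -0.14 to 0.45 (MIR31HG), -0.46 to 0.98 (MIR155HG) and -0.24 to 2.06 (MIR100HG), lowest without scramble replicate 2 and highest without scramble replicate 1. MIR155HG was also at -0.0099 without miR-146a-5p replicate 1 and at -0.34 with the GC trend removed. The lone library's spread is then assumed equal to that of the other group. From deposited TPM, on the log2(TPM + 0.1) scale, MIR3142HG was at 3.48. The cause of these changes was not tested.

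The number of genes called was 0 by edgeR, 52 by DESeq2, and with 1 library left out from 8 to 8421 by edgeR and from 2 to 5349 by DESeq2. The number of hosts of the 8 called was 0 by edgeR, 1 by DESeq2, and with 1 library left out from 1 to 4 by edgeR and from 0 to 3 by DESeq2. Of the 16 other tested hosts 0 were called by edgeR and DESeq2, and with 1 library left out from 0 to 5 by edgeR and from 0 to 3 by DESeq2.

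With the replicate number as a block edgeR called 5 genes and 0 hosts, and MIR3142HG was at 3.70 (adjusted p = 0.0788). No label ties equal replicate numbers to one culture, and replicate 1 minus replicate 2 was correlated between groups at -0.145 across 14810 genes. The crossed pairing, chosen after the data were seen, called 0 genes. Depth limits MIR210HG and the near-zero hosts, where 3 counts are 0.132 to 0.148 CPM.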
